A study of Mus musculus with 45 samples.

Results

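Perivascular macrophages (pvMΦ) sorted from the brains of adult mice at P56, 8 weeks after birth, were set against pvMΦ of pups at P10. These are 4 and 3 libraries, 7 of the 45 in a bulk RNA sequencing series that also holds macrophages of the meninges (mMΦ) and microglia of the parenchyma, and the members were chosen by the cell type and age given in the labels, not by any measured value. All mice were C57BL/6J and carried the reporter genotype Cx3cr1GFP/wt, in which 1 allele of the gene for the fractalkine receptor holds GFP, so the P10 pups carry it as well. No treatment was given. The series' design gives each library as an individual mouse, but some P21 libraries held RNA markers of both sexes, as given below. A further 4 pvMΦ libraries at P21 place the changes in time, and 6 mMΦ and 8 microglia libraries of P56 and P10 serve to show where pvMΦ differ. Replicate 4 at P56 and replicate 4 at P21 were sequenced in batch S276, and the other pvMΦ libraries in batch S232. The sort gate that separated the populations is not given in the sources used here.

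Perivascular macrophages lie between the vessel wall and the glial border of the brain, sample solutes that drain along the vessels, and can present antigen to T cells that enter there. Presentation to helper T cells depends on MHC class II molecules, which border macrophages are known to acquire after birth, whereas microglia of a healthy brain carry little of them. Macrophages of this kind also expand by local division early in life and are long-lived and mostly at rest in the adult.

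Values are CPM, the read count of a gene as a share of the library total scaled by TMM, a method that aligns the bulk of genes between libraries. Differences are log2 fold changes ± SE from edgeR, positive where P56 was higher, and a gene counts as called where its p, adjusted by Benjamini-Hochberg over all genes tested, was under 0.05. Between P56 and P10, 110 of 13167 genes were called, or 0.835%, with 95 (0.722%) higher and 15 (0.114%) lower at P56. Other fits turned this balance: DESeq2 called 394 higher and 610 lower, limma 258 and 284, and edgeR on all 45 libraries 202 and 248. Genes whose libraries did not overlap were 738 (5.60%) with P56 higher and 1295 (9.84%) with P56 lower. In 107 of the 110 called genes the P56 and P10 libraries did not overlap. The median log2 fold change was -0.02 over all genes tested and 0.12 over the 3441 genes with a mean of at least 50 CPM. By log2 fold change the MHC class II genes led the higher set among named genes, and the set also held immediate early genes, chemokines and complement genes. The 15 called lower by edgeR included 4 of the division machinery. No gene was called lower by edgeR without any 1 of the P10 libraries or without P56 replicate 3.

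**Figure D1:**
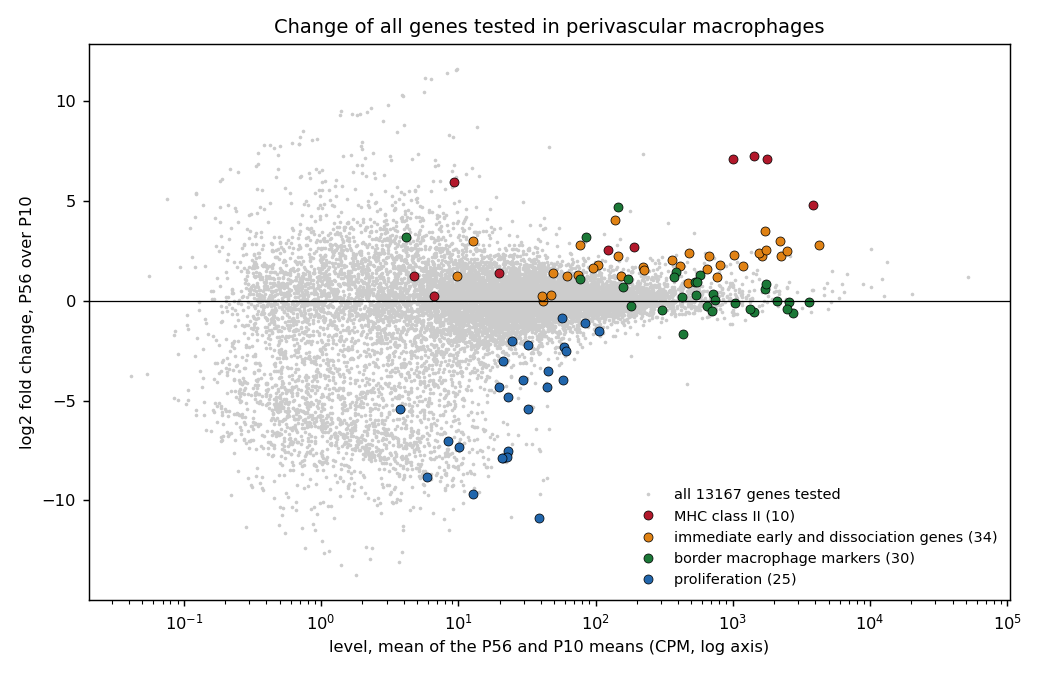
Log2 fold change at P56 over P10 (vertical axis) against the mean level in CPM (horizontal axis, log scale) for the 13167 genes tested in pvMΦ, with the tested members of 4 gene lists in colour (10 MHC class II, 34 immediate early, 30 border macrophage and 25 proliferation genes). The class II genes reach 7.24 (H2-Aa), the proliferation genes lie below 0 down to -10.89 (Cdc20), and the grey cloud widens at low levels.

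The libraries held 14576770 to 23273636 counts at P56 and 19141764 to 24938737 at P10. Scatter between libraries was much larger in adults than in pups. The common dispersion was 1.99 at P56 (4 libraries), against 0.256 at P10 (3 libraries) and 1.60 at P21 (4 libraries). The P56 and P21 values include the replicate 4 libraries of batch S276, with no batch term. The parts of mouse, batch and library preparation in this scatter were not tested. After thinning every library to 9898257 counts, 13374 ± 963 genes were detected at P56 and 15996 ± 535 at P10 (SD, n = 4 and 3). In mMΦ the same numbers were 13635 ± 669 at P56 and 16092 ± 911 at P10. On the principal components P21 replicate 1 and P56 replicate 3 stood apart, and P56 replicate 2 did so on the third component. Microglia P21 replicate 1 held both the female marker Xist (121 CPM) and Y-linked genes (74.3 CPM, summed). In pvMΦ P21 replicate 2 they were at 7.21 and 246 CPM, and in mMΦ P21 replicate 1 at 14.2 and 187 CPM. The cause was not tested. The 7 compared libraries had Xist at 0.0549 CPM or less and Y-linked genes at 128 to 243 CPM. Of the genes tested, 226 had no count in any P56 library and 53 had none in any P10 library. Genes of low level thus carried wide errors in adults, and a gene not called is not shown to be equal between ages.

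The border macrophage identity of the cells was present at both ages. Summed over 30 border macrophage markers, the P56 libraries had 30469, 25272, 34759 and 24031 CPM and the P10 libraries 28568, 27755 and 28943 CPM. These ranges overlap, and 28 of the 30 markers were not called by edgeR. The sum hides shifts in both directions. At an unadjusted p under 0.05 there were 15 markers, 10 higher and 5 lower at P56. The share of all genes under that p is not given here. In 5 markers every adult lay above every pup, which held for 5.60% of all genes tested. In 5 every adult lay below, which held for 9.84%. DESeq2 called 10 markers and limma 8, beside 1004 and 542 of all 13167 genes tested. Mrc1, the mannose receptor, was at 2578 ± 563 CPM at P56 and 2536 ± 452 CPM at P10 (SD, n = 4 and 3; log2 fold change -0.04 ± 0.23). For Pf4, a platelet-type chemokine made by border macrophages, the levels were 3348 ± 1389 and 3800 ± 454 CPM at P56 and P10. The transglutaminase subunit F13a1 had 2188 ± 331 CPM at P56 and 2025 ± 265 CPM at P10. Means and SDs at P56 and P10 were 722 ± 274 and 754 ± 89.1 CPM for the transcription factor Maf. Lyve1, a hyaluronan receptor, stood at 1071, 906, 1460 and 829 CPM at P56, against 1828, 1658 and 1921 CPM at P10. All 4 adult values of Lyve1 lie below the 3 pup values, but the difference was not called (-0.54 ± 0.41, adjusted p = 0.72). The 2 called members were lectins of the Cd209 family, which bind sugars on microbes. Cd209b reached 423, 278, 353 and 65.6 CPM at P56, against 16.1, 9.41 and 7.39 CPM at P10 (4.70 ± 0.74, adjusted p = 0.018). Cd209g was at 189, 189, 179 and 49.9 CPM at P56 and 21.9, 22.5 and 14.4 CPM at P10 (3.19 ± 0.46, adjusted p = 0.011). In both lectins replicate 4 was the lowest adult library and still lay above every pup. Neither call held without any 1 of the P10 libraries, 1 marker was called without P56 replicate 3, and 4 were called without P56 replicate 2.

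The genes of the MHC class II pathway gave the largest rise among named genes. Of 11 genes listed, 10 were tested, 6 were called higher and none lower, beside 0.722% higher over all genes. Their median log2 fold change was 3.75, against -0.02 over all genes. Summed over the list, the P56 libraries had 14138, 25075, 11784 and 14551 CPM and the P10 libraries 574, 453 and 365 CPM.

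H2-Aa encodes the alpha chain of the I-A molecule that holds the peptide. It was at 2628, 4222, 2344 and 2110 CPM at P56, against 47.5, 4.78 and 5.80 CPM at P10 (7.24 ± 1.13, adjusted p = 0.017). H2-Ab1, the matching beta chain, was at 3237, 5545, 2589 and 2707 CPM at P56 and 62.4, 10.5 and 10.1 CPM at P10 (7.10 ± 1.19, adjusted p = 0.025). H2-Eb1, which codes for a beta chain of the I-E molecule, had 1689, 2938, 1635 and 1676 CPM at P56 and 38.1, 6.65 and 2.20 CPM at P10 (7.11 ± 1.20, adjusted p = 0.026). Its RNA does not show whether the I-E molecule was made. All 3 chains were highest in P56 replicate 2, and among the pups replicate 1 was several-fold above the other two. Cd74, the invariant chain that guards the empty groove and guides the molecule to the endosome, was at 6018, 11529, 4785 and 7496 CPM at P56, against 328, 306 and 241 CPM at P10 (4.81 ± 0.68, adjusted p = 0.01). Pups thus already carried RNA of the invariant chain in every library, with little spread among them.

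The peptide loading factors rose less. H2-DMa was at 308, 446, 233 and 326 CPM at P56 and 49.7, 58.8 and 51.2 CPM at P10 (2.69 ± 0.42, adjusted p = 0.016). Its partner H2-DMb1 had 214, 304, 149 and 173 CPM at P56 and 34.4, 40.6 and 34.3 CPM at P10 (2.57 ± 0.36, adjusted p = 0.0096). The pups were close to each other in both genes and every adult lay above them. Ciita, the coactivator that switches the class II genes on, differed among the adults, with 0.163, 0, 48.0 and 25.5 CPM at P56 and 0.276, 0 and 0.576 CPM at P10, and was not called (adjusted p = 0.51). Replicates 3 and 4 held 573 and 577 reads of it, while replicates 1 and 2 and the pups were at or near 0. H2-DMb2, H2-Oa and H2-Ob, which code for loading factors and their inhibitors, overlapped between the ages and were not called. The calls of the class II genes rest on every pup library: 6 of the list were called with all libraries, 3 without P10 replicate 1 and 0 without P10 replicate 2 or without P10 replicate 3. Without P56 replicate 2, the adult with the highest sum, 3 were called. Without a low-count filter 2 were called. The log2 fold change of H2-Aa nevertheless stayed between 6.78 and 9.11 over all 22 alternatives, and its highest adjusted p was 0.14.

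**Figure D2:**
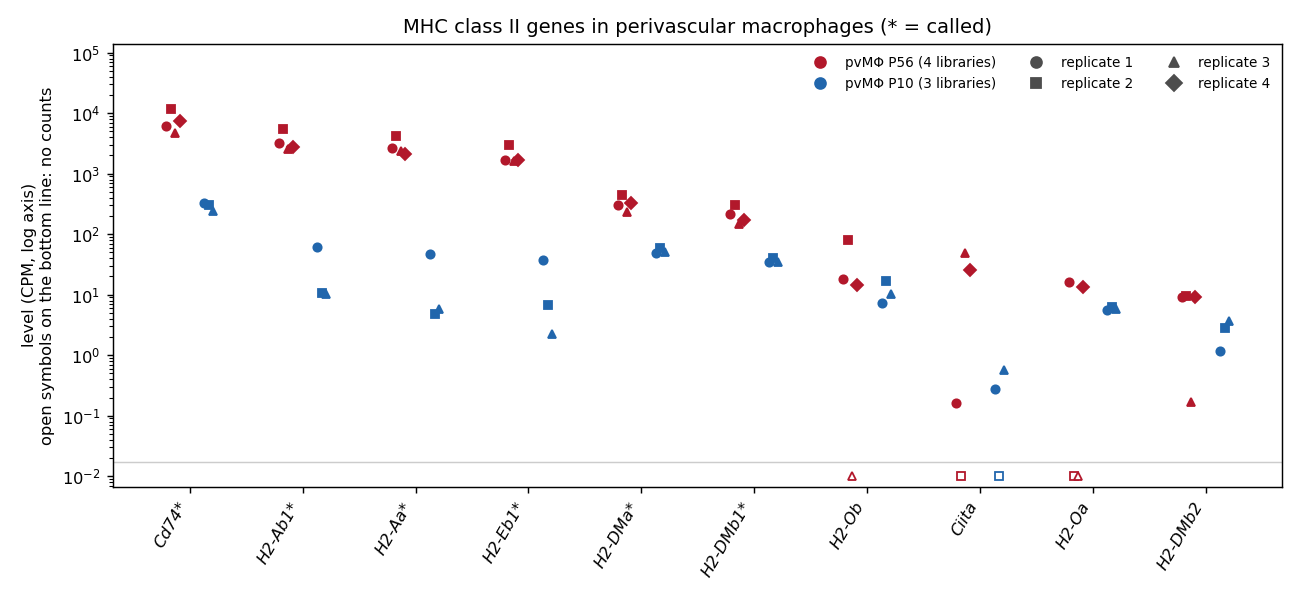
Level in CPM (vertical axis, log scale, open symbols on the bottom line for no counts) of the 10 tested MHC class II genes in each pvMΦ library, P56 in red left of P10 in blue, 1 symbol per replicate, called genes starred. For H2-Aa the adults sit between 2110 and 4222 CPM and the pups between 4.78 and 47.5 CPM.

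Promoters of class II genes share a proximal element, the Y box, whose core is the letters CCAAT or, on the other strand, ATTGG. The promoters of the 3 called class II genes below are shown because they rose together. They are from the RefSeq annotation of GRCm38.p6, 250 bases before to 50 after the gene start, on the gene's own strand, and capitals mark each CCAAT or ATTGG. H2-Aa lies at chr17:34287774-34288073 on the minus strand with ATTGG at -48. H2-Eb1 lies at chr17:34305617-34305916 on the plus strand with ATTGG at -59 and CCAAT at -35. H2-DMb1 lies at chr17:34152941-34153240 on the plus strand with ATTGG at -61. Positions count from the gene start to the first letter of the match.
H2-Aa: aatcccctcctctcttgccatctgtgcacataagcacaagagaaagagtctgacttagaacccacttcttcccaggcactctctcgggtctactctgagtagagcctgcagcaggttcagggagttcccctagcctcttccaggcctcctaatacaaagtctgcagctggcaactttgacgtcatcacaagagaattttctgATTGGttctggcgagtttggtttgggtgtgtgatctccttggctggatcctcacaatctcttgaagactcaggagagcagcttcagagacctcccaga
H2-Eb1: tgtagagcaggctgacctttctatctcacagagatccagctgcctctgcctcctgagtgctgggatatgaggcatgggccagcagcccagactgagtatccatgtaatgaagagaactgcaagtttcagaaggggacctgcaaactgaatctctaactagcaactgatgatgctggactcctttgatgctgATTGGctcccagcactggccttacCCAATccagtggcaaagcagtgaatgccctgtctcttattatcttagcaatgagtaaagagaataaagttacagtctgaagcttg
H2-DMb1: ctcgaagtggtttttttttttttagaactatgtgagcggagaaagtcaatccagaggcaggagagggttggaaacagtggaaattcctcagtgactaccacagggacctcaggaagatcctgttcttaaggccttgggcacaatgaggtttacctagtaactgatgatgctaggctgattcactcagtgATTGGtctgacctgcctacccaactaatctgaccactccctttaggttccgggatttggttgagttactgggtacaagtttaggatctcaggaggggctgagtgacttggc
Searched on both strands, CCAAT was present in 8 of 9 class II promoters in the table, which belong to 8 of the 11 listed genes, and in 37.4% of all 32851 promoters. It was also in 18 of 21 promoters of the proliferation list and 15 of 24 of the DNA replication list. A match describes the letters in this window, and is no evidence of binding.

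Genes of cell division were lower in adults as a group of values, although few single genes passed the test. Of 25 proliferation genes 1 was called lower, Cdc20, and none higher, beside 0.114% lower over all genes. For 24 of the 25 every P56 library lay below every P10 library, which held for 9.84% of all genes tested. Their median log2 fold change was -4.34. The summed level was 236, 258, 249 and 131 CPM at P56 and 1527, 1419 and 1571 CPM at P10.

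Cdc20, the activator of the anaphase-promoting complex, was at 0, 0.0549, 0.0838 and 0 CPM at P56, which is 1 read in replicate 2 and 1 in replicate 3, against 73.8, 78.8 and 78.8 CPM at P10 (-10.89 ± 1.90, adjusted p = 0.031). A fitted fold change of a gene so close to 0 depends on the prior count and is no measured ratio. Pimreg, a mitotic regulator, was at 0.0543, 0, 0 and 0 CPM at P56 and 55.2, 46.4 and 43.5 CPM at P10 (-10.82 ± 1.90, adjusted p = 0.031). Ndc80, a kinetochore protein that holds microtubules, had 1 read in each of the 4 adult libraries, against 29.7, 34.0 and 40.1 CPM at P10 (-8.31 ± 1.62, adjusted p = 0.047). Racgap1, which sets up the cleavage furrow, was at 0.380, 0.275, 0.335 and 3.32 CPM at P56, against 83.6, 61.0 and 86.3 CPM at P10 (-7.43 ± 1.43, adjusted p = 0.047). Adults were at or near 0 in all 4 genes, apart from Racgap1 in replicate 4, the S276 library. Cdc20, Pimreg, Ndc80 and Racgap1 kept their calls in 11, 12, 10 and 8 of 22 alternatives. All 4 lost them without any 1 of the P10 libraries and without P56 replicate 3.

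Mki67, the usual marker of cycling cells, was at 0.163, 0.494, 0 and 0 CPM at P56 and 57.4, 37.2 and 42.5 CPM at P10. Its groups are far apart, yet it was not called (-7.53 ± 2.15, adjusted p = 0.2). The topoisomerase Top2a was at 1.95, 4.06, 41.8 and 8.45 CPM at P56 and 124, 67.9 and 120 CPM at P10. The kinase Cdk1 kept a sizeable level in adults, with 66.5, 49.9, 69.3 and 18.8 CPM at P56 and 148, 172 and 160 CPM at P10 (-1.51, adjusted p = 0.074). Cenpf, a centromere protein, was the only member whose groups overlapped, with 39.2, 61.2, 32.6 and 27.1 CPM at P56 and 83.6, 58.3 and 81.1 CPM at P10. Of 24 DNA replication genes none was called by edgeR, 4 had an unadjusted p under 0.05 and DESeq2 called 5. Their median log2 fold change was -2.31. In 16 of them every adult lay below every pup, which held for 9.84% of all genes. Rrm2, a subunit of ribonucleotide reductase, showed it most plainly, at 0.326, 0.934, 0.335 and 6.63 CPM at P56 and 68.1, 62.7 and 85.5 CPM at P10 (adjusted p = 0.42; chosen after its values were seen). The number of proliferation genes called lower was 16 with the Wald test of DESeq2, 9 with limma and 8 with a fit on all 45 libraries, and ran from 0 to 16 over the alternatives. In bulk RNA, fewer cells of a kind and less RNA per cell cannot be told apart.

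**Figure D3:**
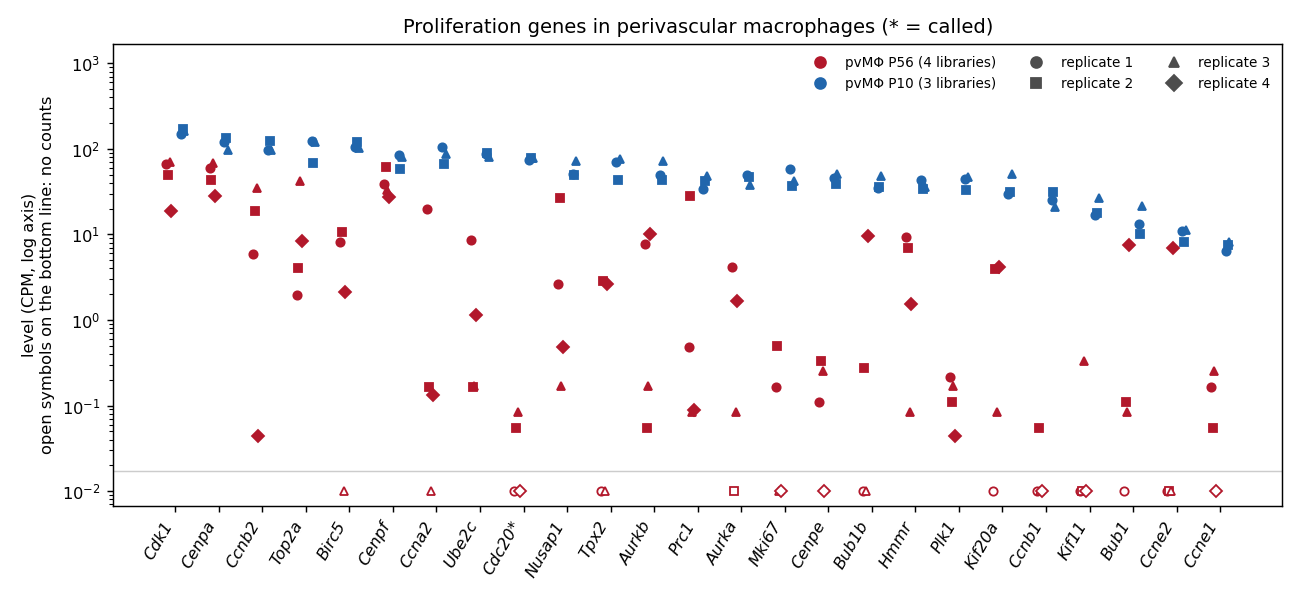
Level in CPM (vertical axis, log scale, open symbols on the bottom line for no counts) of the 25 proliferation genes in each pvMΦ library, P56 in red left of P10 in blue, 1 symbol per replicate, called genes starred. Mki67 reads 0 to 0.494 CPM in the 4 adults and 37.2 to 57.4 CPM in the 3 pups.

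Promoters of genes used in mitosis often hold a cell cycle homology region, whose core is TTTGAA. The promoters of 2 called division genes are shown, with TTTGAA in capitals and the same source and window as above. Cdc20 lies at chr4:118437294-118437593 on the minus strand with the match at -18, and Racgap1 at chr15:99651607-99651906 on the minus strand with the match at 5 after the start.
Cdc20: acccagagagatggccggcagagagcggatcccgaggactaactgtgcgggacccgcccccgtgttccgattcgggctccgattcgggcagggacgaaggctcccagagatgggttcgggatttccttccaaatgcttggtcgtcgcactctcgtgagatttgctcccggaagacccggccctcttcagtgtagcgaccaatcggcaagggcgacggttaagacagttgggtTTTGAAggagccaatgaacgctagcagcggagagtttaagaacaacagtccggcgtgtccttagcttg
Racgap1: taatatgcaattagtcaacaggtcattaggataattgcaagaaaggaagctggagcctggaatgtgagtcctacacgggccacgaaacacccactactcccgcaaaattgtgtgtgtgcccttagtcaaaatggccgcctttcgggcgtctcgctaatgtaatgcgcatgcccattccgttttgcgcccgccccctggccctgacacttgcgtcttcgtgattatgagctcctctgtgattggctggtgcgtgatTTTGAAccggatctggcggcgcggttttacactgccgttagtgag
Searched on both strands, TTTGAA was in 15 of 21 promoters of the proliferation list, which belong to 20 of its 25 genes, in 3 of 24 of the DNA replication list, in 0 of 9 class II promoters and in 17.9% of all promoters. The E2F letters TTGGCGC or TTCCCGC were in 13 of 24 replication promoters, 3 of 21 proliferation promoters and 6.81% of all.

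Genes outside the division lists were called lower as well. Abraxas1, a scaffold of a DNA repair complex, was at 0, 0, 0 and 9.64 CPM at P56, against 12.5, 18.4 and 16.8 CPM at P10 (adjusted p = 0.032). Serpinh1, a collagen chaperone, was at 0, 0, 0 and 1.06 CPM at P56, against 3.49, 5.83 and 8.65 CPM at P10 (adjusted p = 0.035). In both genes replicate 4 alone had counts among the adults, and both lost their calls without the batch term and in the batch S232 libraries alone. Genes of solid level fell by less. Dera, an aldolase of deoxyribose phosphate, had 32.2, 32.0, 38.4 and 53.8 CPM at P56 and 101, 145 and 139 CPM at P10 (-1.85 ± 0.35, adjusted p = 0.04). Ap2m1, the adaptor subunit that picks cargo for clathrin pits, was at 58.0, 68.5, 67.5 and 64.6 CPM at P56 and 154, 167 and 167 CPM at P10 (-1.30 ± 0.25, adjusted p = 0.047). Neither of the last 2 genes overlapped between the ages, but neither call held without any 1 of the P10 libraries. Dera kept its call in 5 and Ap2m1 in 7 of 22 alternatives. Both lost it in the batch S232 libraries alone and without any 1 of the P56 libraries. Dera also lost it with limma and without the batch term.

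Immediate early genes, which code for transcription factors and feedback inhibitors switched on within minutes of a stimulus, formed the largest called group. Of 34 genes listed 18 were called higher and none lower, beside 0.722% higher over all genes. The median log2 fold change was 1.81, and in 27 every adult lay above every pup, which held for 5.60% of all genes. The summed level was 46862, 43884, 50244 and 32460 CPM at P56 and 9602, 8057 and 9373 CPM at P10. Genes of this list are also known to be induced while brain cells are being isolated. The sources used here do not say how cells were isolated at each age, and the part of isolation in these values was not tested.

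Fos, a subunit of the AP-1 factor, was at 8302, 8202, 9094 and 3930 CPM at P56 and 1238, 942 and 1162 CPM at P10 (2.79 ± 0.26, adjusted p = 8.1e-04). Its partner Junb was at 2798, 3551, 2631 and 1578 CPM at P56 and 612, 574 and 619 CPM at P10 (2.26 ± 0.16, adjusted p = 1.6e-04). Atf3, a stress-induced repressor, was at 3293, 3521, 3143 and 2525 CPM at P56, against 347, 227 and 354 CPM at P10 (3.52 ± 0.24, adjusted p = 1.6e-04). Replicate 4 was the lowest adult library for each of these genes and the groups stayed far apart.

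Feedback inhibitors were among the called genes as well. Dusp1, a phosphatase that turns MAP kinases off, was at 4808, 3399, 4713 and 2713 CPM at P56 and 496, 486 and 598 CPM at P10 (2.99 ± 0.18, adjusted p = 1.1e-04). Socs3, an inhibitor of cytokine signalling, was at 159, 330, 297 and 262 CPM at P56 and 14.8, 14.0 and 17.5 CPM at P10 (4.07 ± 0.45, adjusted p = 0.0026). Zfp36, which destabilises cytokine mRNAs, was at 3667, 2804, 3280 and 1942 CPM at P56 and 633, 496 and 536 CPM at P10 (2.54 ± 0.21, adjusted p = 4.8e-04). For the 3 genes the lowest adult was several-fold above the highest pup. Hspa1a, a heat shock gene with a near-identical neighbour that can share its reads, overlapped between the ages and was not called (adjusted p = 0.43). From 12 to 23 genes of the list were called under the alternatives. Dusp1, Fos, Atf3 and Socs3 held their calls under all 22.

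Chemokines and cytokines gave 8 of 28 tested genes called higher and none lower, beside 0.722% higher over all genes. Their median log2 fold change was 1.38. Osm, the cytokine oncostatin M, had 250, 235, 339 and 231 CPM at P56 and 40.0, 29.8 and 37.1 CPM at P10 (3.08, adjusted p = 0.0042). Cxcl16, a membrane-bound chemokine that also takes up oxidised lipid, had 262, 285, 476 and 349 CPM at P56 and 45.7, 62.7 and 60.6 CPM at P10 (2.66, adjusted p = 0.0062). Ccl7, which draws monocytes, had 2742, 2644, 2408 and 1262 CPM at P56 and 448, 477 and 430 CPM at P10 (2.47, adjusted p = 4.8e-04). None of these groups overlapped, and the pups varied little. Ccl2, Ccl3, Ccl4, Ccl6 and Cxcl2 were the other called members. Ccl24 at 697 ± 214 CPM at P56 and 373 ± 24.3 CPM at P10 was not called (adjusted p = 0.21), nor was Ccl8 at 224 ± 132 and 119 ± 49.6 CPM at P56 and P10. The count of called members was 4 without any 1 of the P10 libraries and 5 without P56 replicate 1 or 2.

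Complement and Fc receptor genes gave 6 of 20 called higher and none lower, beside 0.722% higher over all genes. Their median log2 fold change was 0.76. C4b, the complement component that marks surfaces, was at 256, 202, 300 and 260 CPM at P56 and 43.7, 23.2 and 34.4 CPM at P10 (2.80 ± 0.35, adjusted p = 0.0045). The 3 chains of the recognition protein C1q rose by less: C1qb was at 16251 ± 3971 CPM at P56 and 8322 ± 932 CPM at P10 (1.12 ± 0.15, adjusted p = 0.0061), and C1qa at 7875 ± 1522 CPM at P56 and 4559 ± 264 CPM at P10 (0.87 ± 0.12, adjusted p = 0.0073). C1qc overlapped between the ages through P56 replicate 4 and was called at 0.71 (adjusted p = 0.034). Fcgr2b, the inhibitory IgG receptor, stood at 1684 ± 503 CPM at P56 and 798 ± 57.9 CPM at P10 (1.20 ± 0.16, adjusted p = 0.006). Fcgr3, an activating one, had 3255 ± 835 CPM at P56 and 1867 ± 74.7 CPM at P10 (0.95 ± 0.16, adjusted p = 0.028). In a fit without the batch term only 1 member of the list was called, and 3, 2 and 0 were without P10 replicate 1, 2 and 3.

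Among 37 lysosomal genes 3 were called higher and 1 lower, with a median of 0.23. Over all genes 0.722% were called higher and 0.114% lower. Lyz2, the macrophage lysozyme, was at 17053, 16769, 21363 and 13229 CPM at P56 and 3036, 3266 and 3234 CPM at P10 (2.62 ± 0.19, adjusted p = 1.6e-04), and its call held under all 22 alternatives. Ctss, a protease that trims the invariant chain, had 7651 ± 1291 CPM at P56 and 2956 ± 231 CPM at P10 (1.51, adjusted p = 0.034). Its relative Ctsh was at 1980 ± 456 CPM at P56 and 821 ± 88.1 CPM at P10 (1.40, adjusted p = 0.013). Of 15 iron and haem genes 2 were called, the ferritin heavy chain Fth1 at 9391 ± 3109 CPM at P56 and 4161 ± 343 CPM at P10 and the iron carrier Trf at 6188 ± 979 and 3515 ± 288 CPM. Without any 1 of the P10 libraries, 1 lysosomal gene and 1 iron gene were called, in either direction. Apoe, the lipid carrier, was the only called gene of 21 in cholesterol efflux and lipid handling, with 70064, 64908, 94897 and 46057 CPM at P56 and 31766, 36347 and 37131 CPM at P10 (1.22 ± 0.18, adjusted p = 0.012). Its call was lost without any 1 of the P10 libraries, without P56 replicate 3, without the batch term and with all 45 libraries.

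Several single genes had large rises. Vcam1, an adhesion molecule for leukocytes, was at 493, 309, 762 and 1003 CPM at P56 and 35.1, 24.5 and 54.1 CPM at P10 (3.92 ± 0.44, adjusted p = 0.0028). Mt2, a metal-binding protein, was at 95.1, 78.8, 106 and 38.6 CPM at P56 and 5.47, 5.60 and 5.40 CPM at P10 (4.17 ± 0.51, adjusted p = 0.0039). Wfdc17, a small secreted protein of macrophages, was at 1112, 768, 1371 and 552 CPM at P56 and 74.9, 122 and 83.9 CPM at P10 (3.40 ± 0.38, adjusted p = 0.0031). Adults and pups were far apart in each, and all 3 calls held under every alternative. Pla2g2d, a secreted phospholipase, had 208 ± 101 CPM at P56 and 23.3 ± 6.01 CPM at P10 (3.33 ± 0.51, adjusted p = 0.015). Bambi, a decoy receptor of the TGF-beta family, had 101 ± 54.9 CPM at P56 and 7.92 ± 2.68 CPM at P10 (3.64 ± 0.62, adjusted p = 0.026). The nuclear RNA Neat1 had 93.1 ± 36.0 CPM at P56 and 9.75 ± 2.64 CPM at P10 (3.34 ± 0.61, adjusted p = 0.036). Pla2g2d, Bambi and Neat1 each lost the call without any 1 of the P10 libraries, and Neat1 lost it in 13 of the 22 alternatives.

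Other programmes had few members that passed the test of edgeR. Over all genes DESeq2 called 1004, limma 542 and the fit on all 45 libraries 450. Of 16 MHC class I genes edgeR called 1 higher, beside 0.722% higher over all genes. It was H2-T23, a non-classical class I molecule, with 309 ± 98.1 CPM at P56 and 113 ± 8.43 CPM at P10 (1.58 ± 0.28, adjusted p = 0.032). Of the 16, 15 had a positive log2 fold change, and the list median was 0.75. At an unadjusted p under 0.05 the list had 7 members, all higher, and DESeq2 called 5 and limma 4. Its summed level was 9174 to 11667 CPM at P56 and 6404 to 6832 CPM at P10. The light chain B2m was at 4375 ± 729 CPM at P56 and 3322 ± 121 CPM at P10 and was not called. Of 30 interferon genes edgeR called 1, Ifi207 (1.56 ± 0.27, adjusted p = 0.031). At an unadjusted p under 0.05 this list had 6 members, all higher, and DESeq2 called 4 and limma 2. Of 30 macrophage transcription factors edgeR called 1, while DESeq2 called 8, and limma and the fit on all 45 libraries 7 each. It was Cebpb, a factor of inflammatory genes, with 612, 738, 669 and 582 CPM at P56 and 209, 254 and 225 CPM at P10 (1.73 ± 0.28, adjusted p = 0.019). Spi1, the factor all macrophages need, was at 514 ± 75.1 CPM at P56 and 496 ± 46.1 CPM at P10. By edgeR none was called of 20 growth factor and vessel signal genes, 18 matrix genes, 23 cholesterol synthesis genes, 23 glycolysis genes and 9 oncofetal genes that were tested. At an unadjusted p under 0.05 these lists had 4, 1, 3, 1 and 2 members, and DESeq2 called 1, 2, 1, 0 and 1, each in the order given. Igf2bp3, an oncofetal RNA-binding protein, was nevertheless at 0.109, 0.385, 0.419 and 12.9 CPM at P56 and 58.2, 36.2 and 58.0 CPM at P10 (-6.73 ± 1.88, adjusted p = 0.17). In this gene replicate 4 alone kept a level among the adults.

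RNA of other cell types was looked for with 13 marker lists. Microglia markers summed to 19005, 24393, 14596 and 24172 CPM at P56 and 14040, 12770 and 14319 CPM at P10, against means of 96795 CPM at P56 and 86258 CPM at P10 in microglia libraries. All 4 adults lay above the pups, and edgeR called none of the 24 markers, of which 3 had an unadjusted p under 0.05. DESeq2, limma and the fit on all 45 libraries called 3 each. Tmem119, a microglial membrane protein, was at 681, 961, 339 and 1293 CPM at P56 and 248, 245 and 289 CPM at P10 (1.44 ± 0.47, adjusted p = 0.24). In microglia themselves H2-Aa averaged 5.49 CPM at P56 and 2.30 CPM at P10, below the level of the adult pvMΦ.

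Of the dendritic cell markers 6 of 10 were tested and edgeR called none, although 3 had an unadjusted p under 0.05 and DESeq2, limma and the fit on all 45 libraries called 1 each, and the summed level was 601, 755, 429 and 158 CPM at P56 and 30.5, 14.7 and 19.1 CPM at P10. Most of the adult sum, but not of the pup sum, was Cd209a, a lectin that border macrophages can carry too, at 531, 688, 426 and 110 CPM at P56 and 1.84, 0.0778 and 5.98 CPM at P10 (adjusted p = 0.13). Itgax had no count in any adult library, and Flt3 was at 0, 66.6, 0 and 1.41 CPM at P56. Monocyte markers summed to 781, 984, 1181 and 1750 CPM at P56 and 502, 422 and 442 CPM at P10, mostly from the immediate early gene Nr4a1. The chemokine receptor Ccr2 was at 59.0, 66.5, 93.2 and 74.3 CPM at P56 and 4.50, 5.60 and 6.85 CPM at P10 (adjusted p = 0.098), while Ly6c2 had no count at either age. Lymphocyte markers summed to 87.7 to 233 CPM at P56 and 119 to 189 CPM at P10, with Cd3e, Cd8a, Trac and Cd79a at 0 in all 7 libraries.

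Fibroblast and leptomeningeal markers summed to 456, 551, 606 and 162 CPM at P56 and 130, 110 and 139 CPM at P10. Ptgds, the prostaglandin D synthase, made up most of the adult sum, about as much as all other members in replicate 4, and a small part of the pup sum. It was called higher, with 372, 440, 482 and 82.6 CPM at P56 and 21.4, 11.2 and 12.2 CPM at P10 (4.53 ± 0.69, adjusted p = 0.015). The collagen gene Col1a1 was at 1.90, 0.769, 0.168 and 1.33 CPM at P56 and 4.36, 7.55 and 5.51 CPM at P10, so its adult values lay below those of the pups. Foxc1 of the same list was called lower (-8.50 ± 1.67, adjusted p = 0.049), a call kept in 4 of 20 alternatives. Of the 15 members tested 3 had a positive log2 fold change, and the median was -2.19. At an unadjusted p under 0.05, 2 members were higher and 5 lower. The myelin gene Mbp was called higher, with 91.0, 103, 145 and 102 CPM at P56 and 25.9, 19.7 and 24.2 CPM at P10 (2.33 ± 0.28, adjusted p = 0.0038), as was Trf. The oligodendrocyte list that holds both summed to 7078, 7005, 6961 and 5122 CPM at P56 and 3498, 3921 and 4076 CPM at P10, mostly from Trf, which macrophages express too. In 8 of its 12 tested members the log2 fold change was positive, with a median of 0.98, and Opalin and Ermn were at 0 in all 7 libraries. Neuronal markers summed to 78.6 to 195 CPM at P56 and 18.1 to 36.1 CPM at P10, with none of 15 called by edgeR, 5 at an unadjusted p under 0.05 and 4 called by DESeq2. All 15 had a positive log2 fold change. Astrocyte markers summed to 81.6 to 200 CPM at P56 and 60.2 to 73.5 CPM at P10. Endothelial markers summed to 100 to 189 CPM at P56 and 163 to 182 CPM at P10, mural markers to 3.52 to 46.5 CPM and 21.9 to 36.2 CPM, and neutrophil and mast cell markers to 0.0543 to 2.36 CPM and 1.55 to 4.36 CPM at P56 and P10. Ependymal markers summed to 0.326 to 28.3 CPM at P56 and 16.5 to 22.9 CPM at P10. Erythroid markers reached 4.07 CPM at most at P56, and at P10 stood at 1.19, 182 and 1.04 CPM, so 1 pup library held haemoglobin RNA. The part of such RNA in the changes of Ptgds, Mbp and the other called genes was not tested.

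At P21 the mean level lay between the means of P10 and P56 for every called gene of the MHC class II, immediate early, chemokine and complement lists. The 3 comparisons of pvMΦ ages share libraries, so their values are given side by side and not as separate support. Against P10, 20 genes were called at P21, or 0.152%, all of them higher. Between P56 and P21 edgeR called none (0% of the genes tested), while 1141 genes had an unadjusted p under 0.05, DESeq2 called 689 and limma 6. H2-Aa was at 929, 122, 601 and 552 CPM in the P21 libraries (4.90 ± 1.02 over P10, adjusted p = 0.14). Cd74 was at 4173, 577, 1952 and 1089 CPM at P21 (2.81 ± 0.61 over P10, adjusted p = 0.16). In both genes replicate 2 was the lowest and replicate 1, which stood apart on the principal components, the highest.

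Cdc20 at P21 was at 0.0559, 19.6, 23.5 and 10.7 CPM, and Mki67 at 0.0559, 27.4, 26.6 and 0 CPM. Libraries of this age thus differed, with replicate 1 near 0 in both genes. Immediate early genes held 7 of the calls at P21. Dusp1 was at 2244, 2242, 2532 and 1902 CPM (2.20 ± 0.17 over P10, adjusted p = 0.0017) and Atf3 at 1993, 1826, 1456 and 789 CPM (2.42 ± 0.23, adjusted p = 0.0032). Vcam1 (3.88, adjusted p = 0.0088), Mbp (3.39, adjusted p = 0.0018) and Lyz2 (1.48 ± 0.18, adjusted p = 0.012) were also called at P21. The summed border macrophage markers overlapped across the 3 ages.

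**Figure D4:**
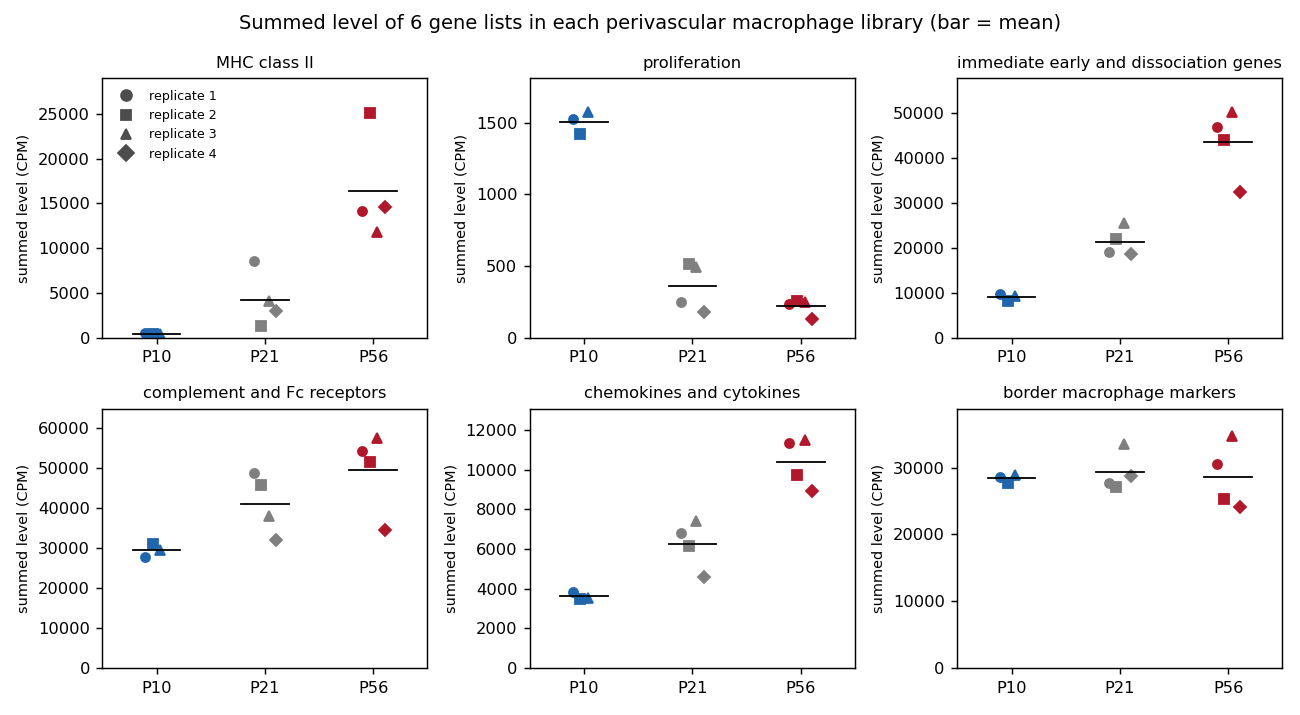
Summed level in CPM (vertical axes from 0) of 6 gene lists in each pvMΦ library at P10, P21 and P56 (horizontal axis), with 1 symbol per replicate and a bar at the mean. MHC class II sums run from 365 to 574 CPM at P10, 1293 to 8555 CPM at P21 and 11784 to 25075 CPM at P56.

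Whether the change in pvMΦ differed from that in mMΦ, the other border macrophage, was tested as a difference of changes. Of 14596 genes 22 were called, or 0.151%, all with a more positive log2 difference in pvMΦ, where the change in mMΦ is subtracted from that in pvMΦ. Such a difference can come from a rise in pvMΦ, a fall in mMΦ or both, and the means of both are given. The 6 called class II genes were not among them. H2-Aa averaged 2931 CPM at P56 and 58.0 CPM at P10 in mMΦ, and Cd74 9433 and 398 CPM at P56 and P10, and all 6 had a higher mean in mMΦ at P56 than at P10. Immediate early genes made up 8 of the 22. For Junb the means were 2640 CPM at P56 and 602 CPM at P10 in pvMΦ, and 3142 and 3344 CPM at P56 and P10 in mMΦ, a difference of 2.35 (adjusted p = 5.2e-05). Nfkbia, the inhibitor of NF-kappaB, had means of 1220 and 382 CPM at P56 and P10 in pvMΦ and 1869 and 2175 CPM in mMΦ (2.03 ± 0.22, adjusted p = 3.4e-04). For Atf3 mMΦ had 4789 CPM at P56 and 1909 CPM at P10 (difference 2.19, adjusted p = 0.0061). In all 18 called immediate early genes the P10 mean of mMΦ was above that of pvMΦ, and in 15 of them mMΦ at P56 were above mMΦ at P10. The 18 were called through low values in these same pvMΦ libraries of P10, so the first count is no separate support. A higher P10 mean in mMΦ was also seen in 8 of 8 called chemokines and cytokines and in 15 of the 15 genes named higher. It was seen in 4 of 6 called class II genes and 4 of 6 called complement and Fc receptor genes.

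**Figure D5:**
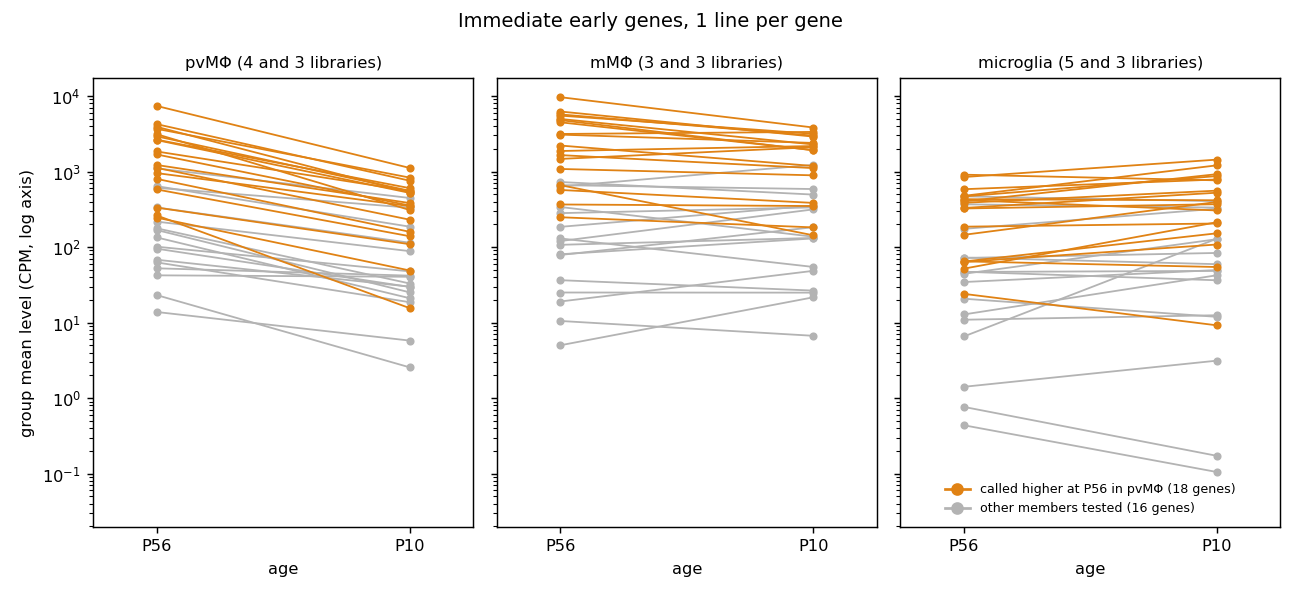
Group mean level in CPM (vertical axis, log scale) of 34 immediate early genes at P56 (left) and P10 (right) in pvMΦ, mMΦ and microglia, 1 line per gene and no error shown, with the 18 genes called higher at P56 in pvMΦ in orange. The orange lines all slope down to P10 in pvMΦ, in mMΦ 15 of the 18 do so from a higher P10 level, and in microglia 5 of the 18 do.

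The pair of largest differences from mMΦ came from genes that were not called in pvMΦ themselves. Angptl7, a secreted angiopoietin-like protein, averaged 26.2 CPM at P56 and 22.5 CPM at P10 in pvMΦ, against 0.0148 and 27.4 CPM at P56 and P10 in mMΦ (10.66 ± 1.42, adjusted p = 0.0035). Mtrf1, a mitochondrial release factor, averaged 19.5 and 10.5 CPM in pvMΦ at P56 and P10 and 0.0208 and 10.3 CPM in mMΦ (9.68 ± 1.69, adjusted p = 0.023). In both the mMΦ at P56 were near 0, so the fitted size depends on the prior count. Gadd45b, a stress sensor, averaged 139 and 47.0 CPM in pvMΦ at P56 and P10, against 188 and 485 CPM in mMΦ (3.07 ± 0.57, adjusted p = 0.041). Sertad1, a cell cycle regulator, averaged 400 and 95.5 CPM in pvMΦ at P56 and P10 and 373 and 639 CPM in mMΦ (2.93 ± 0.29, adjusted p = 1.6e-04). Mt2 differed by 3.12 ± 0.57 (adjusted p = 0.038), with 133 and 64.4 CPM at P56 and P10 in mMΦ.

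Against microglia, 37 of 14963 genes were called, or 0.247%, with 34 (0.227%) more positive and 3 (0.0200%) more negative in pvMΦ. Here 2 class II genes were called, Cd74 and H2-Ab1, and the others of the list, H2-Aa among them, were not. Cd74 averaged 33.5 CPM at P56 and 197 CPM at P10 in microglia (difference 7.15 ± 0.93, adjusted p = 4.3e-04), and H2-Ab1 25.9 and 19.9 CPM (6.57 ± 1.09, adjusted p = 0.0062). Immediate early genes gave 9 of the calls, and their summed level in microglia averaged 7547 CPM at P56 and 10955 CPM at P10. Other large differences came from genes that microglia libraries carried at P10 and hardly at P56. Mrc1 averaged 8.11 CPM at P56 and 347 CPM at P10 in microglia (5.46 ± 0.61, adjusted p = 1.3e-04), and Apoe 330 and 5565 CPM (4.69 ± 0.72, adjusted p = 0.0029). Folr2, the folate receptor of border macrophages, averaged 192 and 127 CPM at P56 and P10 in pvMΦ and 0.146 and 4.72 CPM in microglia (5.67 ± 1.04, adjusted p = 0.015). Gpx3, a secreted peroxidase, averaged 592 and 322 CPM in pvMΦ at P56 and P10 and 1.32 and 147 CPM in microglia (7.94 ± 0.97, adjusted p = 2.8e-04). The cell cycle gene Cenpf averaged 40.0 and 74.3 CPM in pvMΦ at P56 and P10 and 0.161 and 82.5 CPM in microglia (8.18 ± 1.36, adjusted p = 0.0062). Of the genes with a more negative change in pvMΦ, Ctnnal1, an alpha-catenin relative, had no count in any P56 pvMΦ library. That is at least 122-fold lower than its 5.15 CPM at P10 (from 3 counts over the group), a bound that covers counting error only. Ctnnal1 averaged 41.3 and 15.5 CPM at P56 and P10 in microglia (difference adjusted p = 0.035). Mrc1, Folr2, Gpx3, Cenpf and Ctnnal1 were not called between P56 and P10 in pvMΦ themselves.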

How the data were processed

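RNA of sorted cells was reverse transcribed with an ultra-low-input full-length kit and made into single-read libraries with a transposase kit, per the labels' protocols. The authors deposited 1 table of integer read counts per gene. Per the submitters' processing notes, bcl2fastq 2.18, STAR 2.7.8a and featureCounts 2.0.2 were used. The build, the annotation and the setting for strand were not given in the sources used here. The kit keeps no strand, so overlapping and antisense genes are uncertain, and so are genes with near-identical copies. The table holds 53546 symbols, 35253 with a count, and all 45 columns were used.

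TMM factors were computed over all 45 libraries. The 11 pvMΦ libraries were fitted alone with the quasi-likelihood test of edgeR 4.0.16 (robust, R 4.3.3), with 1 coefficient per age and 1 for batch S276, because scatter differs between populations. Scatter also differs between ages, and this fit pools it over them. Genes were kept by filterByExpr (minimum count 10, minimum total 15). Differences of changes were fitted on 20 libraries of pvMΦ and mMΦ, or 24 of pvMΦ and microglia. All adjusted p-values are Benjamini-Hochberg values from edgeR over all genes tested, unless DESeq2 1.42.0 or limma 3.58.1 is named. The scripts were tested on simulated data. Means are given ± SD.

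The members, the 32 gene lists and the tests were chosen with earlier results of these data known. Named genes are the 15 with the largest change in each direction among called genes whose mean reached 5 CPM in 1 age and whose libraries did not overlap, up to 4 called and 2 uncalled members of each list, 20 followed genes, and the 5 largest in each direction of the differences of changes. This naming passed over gene models with no name, sex-chromosome markers, and genes of mitochondria or ribosomal proteins. Members outside this rule, given to show the spread of a list, were chosen after their values were seen. No library repeats another: chi-square divided by its degrees of freedom ran from 273 to 359 for pairs of P56 libraries and from 40.5 to 58.4 for pairs at P10. Zero counts and bounds cover counting error only.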

Additional observations from a re-analysis of the deposited data

Results flagged for a closer look

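Of 160 groups of values at P56, 19 had a library far from the rest by Dixon's test at 95%. For separate groups of normal values chance alone marks about 1 in 20. Some groups here held libraries at 0, and list sums share genes with single-gene groups, so that rate need not hold. Replicate 4, the S276 library, was the one in 14 of them. It was the highest for the repair scaffold Abraxas1 (9.64 CPM, the next at 0), the growth factor receptor Csf1r (9211, the next at 4611), the lysophospholipase Enpp2 (9.64), the transglutaminase F13a1 (2682), Foxc1 (0.0884), the globin Hbb-bs (2.48), Igf2bp3 (12.9), Racgap1 (3.32) and Serpinh1 (1.06). It was the lowest for C1qb (10323, the next at 17884), Cd209g (49.9), Trf (4720), the summed lysosomal genes (79017) and the summed oligodendrocyte markers (5122). Replicate 2 was highest for H2-Eb1 (2938) and S100a9 (2.03), replicate 3 for Meg3 (58.2) and the summed MHC class I genes (11667), and replicate 1 for Pimreg (0.0543), which is a single read.

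The change between P56 and P10 differed between populations, by the test of the difference in edgeR (adjusted p under 0.05). The values are the log2 change in pvMΦ minus that in the other population, so a positive one can come from a fall in the other population. Against mMΦ it was positive for Angptl7 (10.66), Mtrf1 (9.68), Mt2 (3.12), Gadd45b (3.07), Sertad1 (2.93) and Atf3 (2.19). Against microglia it was positive for Cenpf (8.18), Gpx3 (7.94), Cd74 (7.15), H2-Ab1 (6.57), Folr2 (5.67), Mrc1 (5.46), Mt2 (5.45), Apoe (4.69), Socs3 (4.04) and Atf3 (3.98). It was negative for Ctnnal1 (-11.07), the adaptor Ywhah (-1.31) and the myelin-associated Pmp22 (-1.09).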

How the results depend on the processing

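No named gene changed direction where the main fit or the alternative called it. Changes of sign in genes called by neither fit were not counted. Of the 46 named genes called between P56 and P10, 9 kept call and direction under all 22 alternatives (Mt2, Socs3, Vcam1, Atf3, Wfdc17, Lyz2, Dusp1, Fos and Sertad1). The 110 genes called between P56 and P10 were 107 with DESeq2 size factors, 113 without a low-count filter and 112 in batch S232 alone. They were 1004 with DESeq2 (394 higher, 610 lower, all 110 among them), 542 with limma (258 higher, 284 lower), 450 with all 45 libraries (202 higher, 248 lower), 72 without the batch term and 84 with the compared groups only and no batch term. Without the 2 libraries that stood apart 86 were called, and 43 without these and P56 replicate 2, an alternative chosen after the data were seen. Leaving out 1 library gave 29 to 138: 29, 30 and 37 without P10 replicate 3, 2 and 1, and 66, 67 and 70 without P56 replicate 3, 1 and 2.

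Libraries were treated as unpaired. Deviations of same-numbered P56 and P10 libraries correlated at -0.04, 0.04 and -0.03. For replicates 1 to 4 of P56 and P21 the values were 0.03, 0.02, -0.04 and 0.25, with replicate 4 from batch S276 at both ages. So few pairs cannot settle whether a replicate number marks a shared litter or day. With the replicate number as a block 63 genes were called between P56 and P10, 5 between P21 and P10, 0 between P56 and P21, 19 against mMΦ and 31 against microglia.

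For P21 against P10 (20 genes) the counts were 48 without the filter, 301 with DESeq2, 180 with limma, 9 without the batch term, 105 with all libraries, 8 with the compared groups only and no batch term, and 7 and 4 without the 2 or 3 libraries. Leaving out 1 library gave 4 to 35: 4 without P10 replicate 1 or 2, 5 without P10 replicate 3, 13 without P21 replicate 2 and 35 without P21 replicate 3. For P56 against P21 (0) they were 16 without the filter, 689 with DESeq2, 6 with limma, 10 in S232, 45 with all libraries, and 0 to 10 with 1 library left out, 10 without P56 replicate 4, 9 without P21 replicate 4 and 5 without P21 replicate 1. For the difference from mMΦ (22) they were 486 with DESeq2, 49 with limma, 13 without the batch term, 41 in S232, 12 with all libraries, and 8 to 41 with 1 library left out, 8 without mMΦ P56 replicate 2 or pvMΦ P10 replicate 2, 10 without pvMΦ P10 replicate 3, 11 without mMΦ P10 replicate 2, 13 without mMΦ P56 replicate 1 or 3, 14 without mMΦ P10 replicate 3 or pvMΦ P10 replicate 1, and 41 without P21 or P56 replicate 4 of pvMΦ. For the difference from microglia (37) they were 420 with DESeq2, 132 with limma, 92 in S232, 94 with all libraries, 24 without the 3 libraries, and 13 to 99 with 1 library left out, 13 without pvMΦ P10 replicate 2, 14 without pvMΦ P10 replicate 1 or 3, 21 without microglia P10 replicate 1 or 3, and 99 without P56 replicate 4. The cause of these shifts was not tested. Genes of a few CPM or less rest on few reads in some libraries.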
